A study of Homo sapiens with 8 samples.

Results

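Heat shock proteins and their DNAJ co-chaperones were followed in RNA-seq counts from human lung fibroblasts. The members were the genes whose symbol is CRYAB or belongs to the HSPA, HSPB, HSPD, HSPE, HSPH, HSP90 or DNAJA, DNAJB and DNAJC series and whose counts summed to at least 50 over the 8 libraries. Of 54628 genes in the deposited table, 73 had such a symbol and 63 of these reached the minimum. The rule used the total over all libraries, not any difference between groups, and all 63 members also passed the filter on low counts used for the tests.

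The cells were IMR90, a fetal lung fibroblast line, immortalised with hTERT and carrying an N-terminally Flag-tagged YAP5SA in the pINDUCER20 vector, which expresses its insert when doxycycline is added. YAP is a transcriptional co-activator of the Hippo pathway, and in the 5SA form the serines through which LATS kinases restrain it are changed to alanine. There were 4 groups with 2 libraries each: senescent cells with doxycycline, senescent cells without it, proliferating cells with doxycycline, and proliferating cells without it. Senescence was induced by bleomycin, a DNA-breaking drug, at 10 ug/ml for 24 h, and cells were collected 9 days later. Doxycycline was given at 1 ug/ml for 11 days, which is longer than the bleomycin exposure and the 9 days after it together. If doxycycline was kept on until collection, it was started before bleomycin. Its effect in senescent cells would then include the time in which senescence was being induced. All groups shared the hTERT gene, the uninduced or induced transgene, 3% oxygen and 15% serum. No group received doxycycline without carrying the transgene, so an effect of the drug and an effect of YAP5SA cannot be told apart. The labels do not say that the 2 libraries of a group came from separate cultures, so p-values measure the spread between these libraries, which may be technical.

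HSP70 chaperones bind exposed hydrophobic stretches of unfolded proteins in a cycle of ATP hydrolysis. DNAJ proteins, also called HSP40s, carry a J domain that brings clients to a given HSP70 and starts that hydrolysis, and nucleotide exchange factors such as the HSP110 proteins release the client. Small heat shock proteins hold unfolding proteins without ATP, HSP90 matures kinases and steroid receptors, and HSP60 with HSP10 folds proteins inside mitochondria. The heat shock factor HSF1 drives many of the cytosolic members through heat shock elements in their promoters, whereas the chaperones of the endoplasmic reticulum (ER) follow the unfolded protein response through ER stress elements. Senescent fibroblasts are known for a large output of secreted proteins, which pass through the ER.

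Total counts ran from 33627708 to 39692162 per library, and members took between 1.07% and 1.26% of them. Values are CPM, read counts scaled to 1000000 per library after TMM normalisation, and log2 changes come from one edgeR quasi-likelihood fit to all 8 libraries, with p-values adjusted over 17155 genes. Marker levels were scaled by total counts alone, without TMM. All 9 fibroblast markers reached 1 CPM in at least 1 library. Under 1 CPM in every library were 5 of 6 epithelial markers (NKX2-1 with 0 counts) and 3 of 5 endothelial markers, PECAM1, CDH5 and KDR. The same held for 5 of 6 leukocyte markers, PTPRC among them. The summed level of the fibroblast markers was 22450 to 26440 CPM in senescent cells with doxycycline and 30870 to 34000 CPM in those without it, and 20730 to 21990 CPM in proliferating cells with doxycycline and 30430 to 30640 CPM in those without it. The summed epithelial markers reached at most 1.31 CPM and were highest in senescent cells with doxycycline. The summed endothelial markers came nearly all from VWF and TEK. The sums were 102 to 108 CPM in senescent and 46.2 to 52.7 CPM in proliferating cells with doxycycline. Without it they were 122 to 144 CPM in senescent and 71.4 to 73.1 CPM in proliferating cells. The summed leukocyte markers, nearly all from CD68, were 64.7 to 67.8 CPM in senescent cells with doxycycline and 115 to 153 CPM in those without it. The part of these levels in the results was not tested. YAP1, the gene of the transgene, had 291 and 287 CPM in senescent cells with doxycycline and 190.3 and 223 CPM in those without it, a log2 change of 0.48 (SE 0.10, edgeR adjusted p = 0.00140). It had 190.2 and 238 CPM in proliferating cells with doxycycline and 198 and 195 CPM in those without it, a log2 change of 0.12 (SE 0.10, edgeR adjusted p = 0.431), which did not pass the threshold of 0.05. Reads of the transgene and of the endogenous gene are not separated in these counts. In bulk RNA such as this, fewer cells making a transcript and less of it per cell cannot be told apart.

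Promoter sequences are shown first, because some members hold the elements of one or the other stress response. RefSeq windows of the 250 bases upstream of each annotated start (GRCh38.p14) were matched for 56 members, 73 windows in all. CRYAB, HSPB11, HSPA12B, HSPA14, DNAJC1, DNAJC22 and DNAJC24 had no window under these symbols and are named only. HSPB11 is listed in RefSeq as IFT25, and windows under that name were not searched. A heat shock element, spelled as GAA, TTC and GAA with 2 bases of any kind between neighbours and searched on both strands, occurred in the windows of 6 members, DNAJB6, HSP90AA1, HSP90AB1, HSPA6, HSPA8 and HSPD1. That is 10.7% of the members with a window, against 0.557% of all 27305 genes with one. An ER stress element, spelled as CCAAT and CCACG with 9 bases of any kind between them and also searched on both strands, occurred in HSPA5 and HSP90B1 (3.57% of the members), against 0.0916% of all genes. The TEAD site GGAATG, through which YAP is recruited to DNA, was present in the windows of DNAJC14, DNAJC6 and HSPA4L (5.36%), against 14.3% of all genes. A match describes letters in a window and does not show binding. A window without a match can still hold an element of another spelling, and bases beyond the 250 were not searched.

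The stretches of 30 bases around the heat shock elements are given 5′ to 3′ on the strand of the gene, with the element in capitals. They lie at chr7:157336865-157336894 (+ strand) for DNAJB6, chr14:102087111-102087140 (− strand) for HSP90AA1, chr6:44247770-44247799 and chr6:44247823-44247852 (+ strand) for HSP90AB1, chr1:161524458-161524487 (+ strand) for HSPA6, chr11:123062345-123062374 and chr11:123062170-123062199 (− strand) for HSPA8, and chr2:197500061-197500090 (− strand) for HSPD1, where 2 matches overlap.
DNAJB6: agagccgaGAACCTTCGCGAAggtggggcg
HSP90AA1: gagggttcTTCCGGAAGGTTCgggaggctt
HSP90AB1, distal: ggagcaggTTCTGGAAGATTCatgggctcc
HSP90AB1, proximal: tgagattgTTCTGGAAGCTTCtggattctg
HSPA6: cggaaaggTTCGCGAAAGTTCgcggcggcg
HSPA8, distal: gcgagcttGAAAGTTCCAGAAcgctgcggt
HSPA8, proximal: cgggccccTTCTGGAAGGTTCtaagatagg
HSPD1: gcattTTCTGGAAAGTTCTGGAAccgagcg

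The ER stress elements lie in HSP90B1 at chr12:103930211-103930240 and chr12:103930316-103930345 (+ strand), the second in the reverse orientation, and in HSPA5 at chr9:125241385-125241414 (− strand). For HSPA5 the whole upstream window, chr9:125241344-125241593, is printed because no annotated untranslated region overlaps it and because the gene is one of the ER chaperones whose change with doxycycline differed between the states.
HSP90B1, distal: cctgaCCAATCGGAAGGAGCCACGcttcgg
HSP90B1, proximal: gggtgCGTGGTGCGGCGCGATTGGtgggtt
HSPA5, upstream window: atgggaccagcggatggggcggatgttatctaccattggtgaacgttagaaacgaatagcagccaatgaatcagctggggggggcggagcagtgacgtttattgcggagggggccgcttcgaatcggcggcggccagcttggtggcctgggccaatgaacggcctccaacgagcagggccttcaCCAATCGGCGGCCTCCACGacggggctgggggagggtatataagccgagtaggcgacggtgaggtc

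The members differed widely in level. Per kilobase of exon (GENCODE 29 union exon length), HSPA8, the constitutive HSC70, had a mean of 483 CPM in senescent cells with doxycycline, 439.9 in senescent cells without it, 434 in proliferating cells with doxycycline and 349.6 in those without it. On the same scale HSP90B1, the HSP90 of the ER, had 331, 511, 281 and 300.1 in the same groups, and HSP90AB1, the constitutive cytosolic HSP90, had 382, 342, 444 and 362. HSPB1, the small heat shock protein HSP27, had 166, 138, 268 and 328. HSP90B1 was thus the highest of these 4 per kilobase in senescent cells without doxycycline, HSPA8 in senescent cells with it, and HSP90AB1 in both proliferating groups, where its lead over HSPA8 with doxycycline was smaller than the spread between libraries. By these counts the stress-inducible HSP70 genes were near the bottom of the family. HSPA1B had between 1.34 and 3.56 CPM over the 8 libraries, and HSPA6 had under 1 CPM in each. HSPA1B is near-identical to HSPA1A. Reads that fit both genes may not have been counted, so the level of HSPA1B may be underestimated.

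In senescent cells with doxycycline against those without it, 23 members were higher and 17 lower, against 22.6% and 23.8% of all genes tested (46.3% called in either direction). The 23 include DNAJB13, which reached the count minimum only with the libraries of both groups with doxycycline. Leaving out DNAJB13, DNAJC12 and HSPA1L, which miss the minimum without the libraries of 1 group, gave 22 higher and 17 lower. In proliferating cells with doxycycline against those without it, 17 were higher and 5 lower, against 12.6% and 10.4% of all genes (23.0% in either direction). The medians over the members were a log2 change of 0.12 in senescent and 0.07 in proliferating cells, beside 0.00 over all genes in both. Scaling by total counts alone moved the median of all genes by 0.17 in senescent cells, and the split of the members there became 31 higher and 12 lower. In proliferating cells that scaling gave 14 and 5. The counts also leaned on single libraries. Without proliferating replicate 1 they were 10 higher and 1 lower in proliferating cells, and without proliferating replicate 2 they were 7 and 2. Without replicate 1 of senescent cells with doxycycline they were 15 and 11 in senescent cells. Calls made in both states and in the same direction covered 10 of the higher members, 43.5% of those in senescent and 58.8% of those in proliferating cells, and 3 of the lower ones, 17.6% and 60% of each list. The 10 were CRYAB, HSPB8, DNAJC6, DNAJB1, DNAJB4, DNAJB6, DNAJB9, HSP90AA1, HSPD1 and HSPH1, and the 3 were DNAJB5, DNAJC13 and HSPA12A. HSPB1 was called in opposite directions. These comparisons share no library. The overlap over all genes was not computed, so these shares are not read as a trait of the members.

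**Figure D1:**
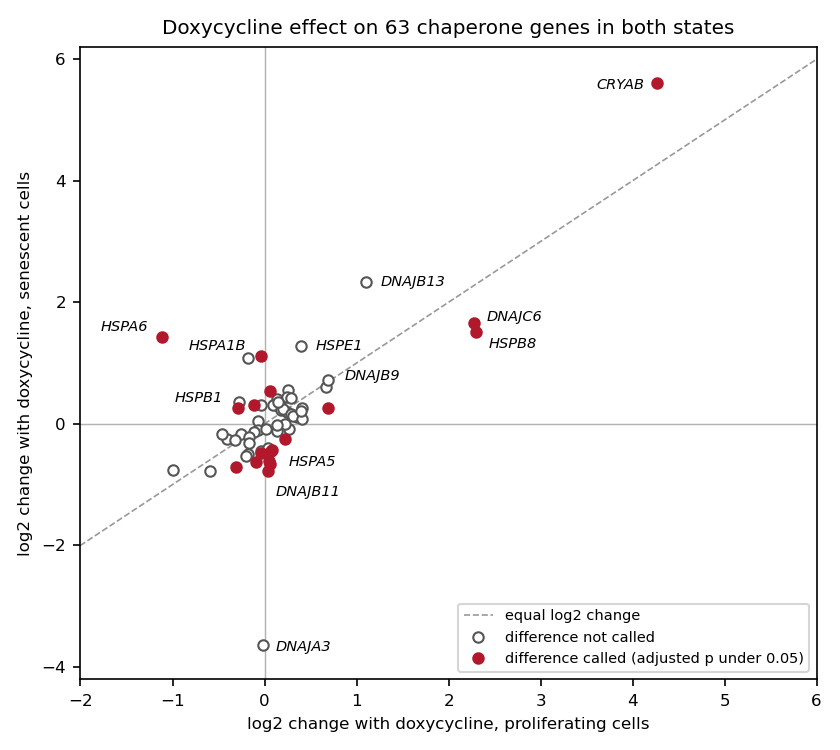
Log2 change with doxycycline of the 63 members in senescent cells (vertical axis) against proliferating cells (horizontal axis), 1 point per gene. Filled points are the 18 members whose change differed between the states at an adjusted p under 0.05, open points are the rest, and the dashed line marks equal changes. CRYAB lies far above all others at 5.61 and 4.26, DNAJC6 and HSPB8 lie to the right of the line, and HSPA5 and DNAJB11 lie below 0 in senescent cells at a change near 0 in proliferating cells.

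The small heat shock protein CRYAB, or alpha-B-crystallin, which keeps filament proteins and other clients from aggregating, showed the largest rise with doxycycline of any member in both states. It had 33.0 and 33.9 CPM in senescent cells with doxycycline and 0.812 and 0.547 CPM in those without it. In proliferating cells it had 8.18 and 5.32 CPM with doxycycline and 0.366 and 0.326 CPM without it. The groups did not overlap in either state, and in each state the lower library with doxycycline was many times the higher one without it. The log2 change was 5.61 (SE 0.22, edgeR adjusted p = 9.47e-11) in senescent cells, a 48.7-fold rise, and 4.26 (SE 0.25, edgeR adjusted p = 1.44e-08) in proliferating cells, a 19.2-fold rise. The difference between these changes was 1.34 (SE 0.42, edgeR adjusted p = 0.0346). That difference lost its call without either proliferating library, without replicate 2 of senescent cells and without either library of senescent cells with doxycycline, whereas the change in each state was called under every alternative. Without doxycycline CRYAB had only 13 to 29 reads per library, which sets the precision of those levels. Its span on chromosome 11, from 111908564 to 111923740, overlaps HSPB2 and C11orf52, which had 22 and 0 counts in all.

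HSPB8, the small heat shock protein that with BAG3 sends clients to autophagy, had 55.4 and 48.9 CPM in senescent cells with doxycycline and 18.3 and 18.1 CPM in those without it. Proliferating cells had 60.6 and 58.1 CPM with doxycycline and 12.1 and 12.1 CPM without it. With doxycycline the senescent libraries lay just below the proliferating ones, at a log2 difference of -0.19 (SE 0.08, edgeR adjusted p = 0.0748), which passed the threshold in no alternative but that without replicate 1 of senescent cells with doxycycline, while without it they lay above. The log2 change was 1.52 (SE 0.09, edgeR adjusted p = 3.15e-09) in senescent cells and 2.30 (SE 0.09, edgeR adjusted p = 8.04e-11) in proliferating cells, and the difference was -0.78 (SE 0.13, edgeR adjusted p = 0.000562), called under every alternative. DNAJC6, or auxilin, which recruits HSC70 to strip clathrin from coated vesicles and is best known from neurons, followed the same order. It had 47.0 and 41.5 CPM in senescent cells with doxycycline against 12.3 and 15.7 CPM in those without it, and 43.5 and 53.9 CPM in proliferating cells with doxycycline against 10.5 and 9.52 CPM in those without it. Its log2 change was 1.66 (SE 0.13, edgeR adjusted p = 1.31e-07) in senescent and 2.28 (SE 0.13, edgeR adjusted p = 1.28e-08) in proliferating cells. The difference of -0.62 (SE 0.18, edgeR adjusted p = 0.0286) lost its call under total counts and in 5 of the settings that left out 1 library, among them proliferating replicate 2 and either library of senescent cells with doxycycline. HSPB8 lies on chromosome 12 from 119178931 to 119194746 and DNAJC6 on chromosome 1 from 65264749 to 65415871.

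**Figure D2:**
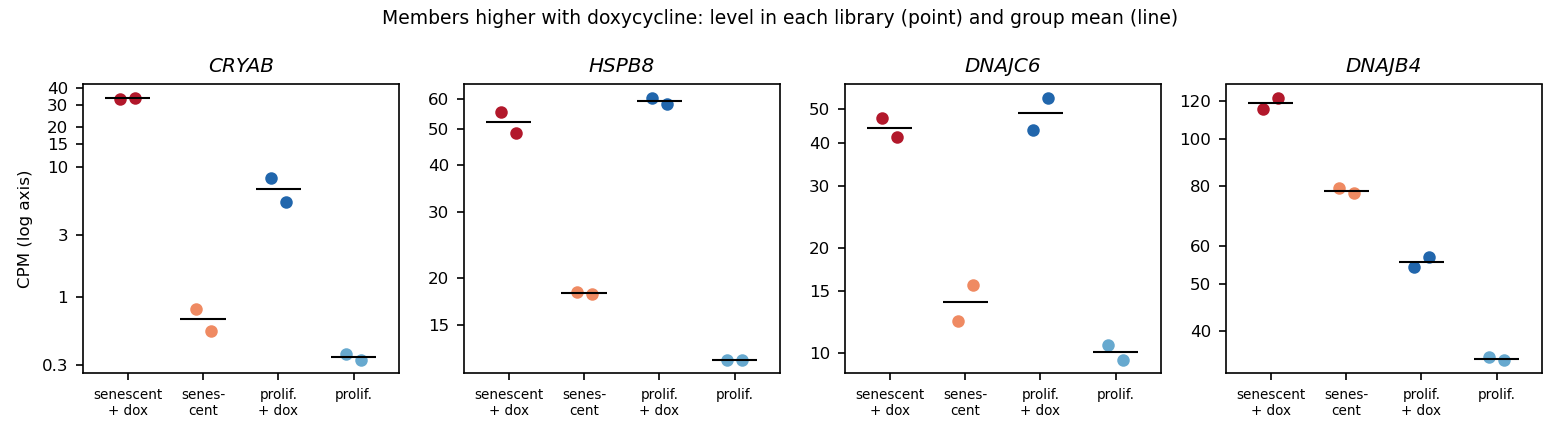
CPM of CRYAB, HSPB8, DNAJC6 and DNAJB4 on log axes in senescent cells with doxycycline, senescent cells, proliferating cells with doxycycline and proliferating cells (prolif.), with 1 point per library and a line at the mean of the 2. CRYAB separates the groups most widely, from 33.5 CPM in senescent cells with doxycycline to 0.346 CPM in proliferating cells without it. HSPB8 and DNAJC6 stand at similar levels in both groups with doxycycline, whereas DNAJB4 stands higher in the senescent one. Each gene is lowest on average in proliferating cells without doxycycline.

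Among the cytosolic DNAJ proteins, 7 of 16 were higher and 4 lower with doxycycline in senescent cells, and 5 were higher and 2 lower in proliferating cells. The shares over all genes were 22.6% and 23.8% in senescent and 12.6% and 10.4% in proliferating cells. One of the 7, DNAJB13, reached the count minimum only with both groups with doxycycline. Of its 61 counts, senescent cells with doxycycline held 34 and proliferating cells with doxycycline held 14. DNAJB4, a partner of cytosolic HSP70 close in sequence to DNAJB1, had 115 and 122 CPM in senescent cells with doxycycline against 79.0 and 77.4 CPM in those without it. In proliferating cells the values were 54.2 and 57.0 CPM with doxycycline against 35.2 and 34.7 CPM without it. No groups overlapped, and the log2 change was 0.60 in senescent cells and 0.67 (SE 0.08, edgeR adjusted p = 1.13e-05) in proliferating cells. DNAJB6, which suppresses the aggregation of polyglutamine proteins, had 242 and 251 CPM with doxycycline and 223 and 188 CPM without it in senescent cells. In proliferating cells it had 212 and 209 CPM with doxycycline and 129.6 and 131 CPM without it, a log2 change of 0.69 (SE 0.09, edgeR adjusted p = 2.38e-05). The change in senescent cells minus that in proliferating cells was -0.43 (SE 0.12, edgeR adjusted p = 0.0196), a call lost under total counts, without either proliferating library, without senescent replicate 1 and without replicate 1 of senescent cells with doxycycline. DNAJB1, the main heat-inducible HSP40, had 199 and 193 CPM in senescent cells with doxycycline and 136 and 131 CPM in those without it, a log2 change of 0.55 (SE 0.08, edgeR adjusted p = 2.53e-05). The proliferating cells had 178 and 164 CPM with doxycycline and 145 and 142 CPM without it, and the log2 change of 0.25 (SE 0.08, edgeR adjusted p = 0.0243) lost its call without either proliferating library and without replicate 1 of the group with doxycycline. The span of DNAJB1 overlaps TECR, which changed with doxycycline in the other direction, by -0.31 in senescent and -0.25 in proliferating cells on the log2 scale. The span of DNAJB4 overlaps FUBP1, which moved the same way in senescent cells, by 0.25 (SE 0.08, edgeR adjusted p = 0.0171), and was not called in proliferating cells, at -0.03.

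The abundant cytosolic chaperones with a heat shock element were moderately higher with doxycycline in proliferating cells. HSPA8 had 2154 and 2058 CPM with doxycycline and 1718 and 1672 CPM without it. HSP90AA1, the stress-inducible cytosolic HSP90, had 1816 and 1639 CPM with doxycycline and 1321 and 1289.6 CPM without it, and HSP90AB1 had 1409 and 1236 CPM and 1082 and 1078 CPM in the same groups. The groups did not overlap for any of these. The log2 changes were 0.31 (SE 0.09, edgeR adjusted p = 0.0169) for HSPA8, 0.40 (SE 0.09, edgeR adjusted p = 0.00340) for HSP90AA1 and 0.29 (SE 0.09, edgeR adjusted p = 0.0267) for HSP90AB1. HSPD1, the mitochondrial HSP60, had 459 and 417 CPM with doxycycline and 344 and 320.3 CPM without it, a log2 change of 0.40 (SE 0.08, edgeR adjusted p = 0.00213). HSPH1, an HSP110 that releases clients from HSP70, had no match to the spelled element in its window. It had 208 and 203 CPM with doxycycline and 175 and 161 CPM without it. Its log2 change was 0.29 (SE 0.08, edgeR adjusted p = 0.0176). All 5 calls were lost without proliferating replicate 2, those of HSPA8, HSP90AB1 and HSPH1 also without proliferating replicate 1, and that of HSP90AB1 also without replicate 1 of the group with doxycycline. WDR20, whose span overlaps HSP90AA1, was also higher with doxycycline, by 1.19 in senescent and 0.33 in proliferating cells on the log2 scale. Of the 6 members with a heat shock element, 5 were higher and 0 lower in proliferating cells. Of the 50 members with a window but no match, 11 were higher and 4 lower. Over all genes tested 12.6% were higher and 10.4% lower. The sixth member with the element, HSPA6, had between 4 and 32 reads per library. In senescent cells the counts were 4 higher and 0 lower of 6, against 17 and 15 of 50. The shares over all genes there were 22.6% and 23.8%. The 4 were DNAJB6, HSP90AA1, HSPD1 and, on few reads, HSPA6. None of these 4 calls held under every alternative, whereas 20 of all 40 calls among the members in senescent cells did. The part of the element in these changes was not tested.

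In senescent cells with doxycycline the same chaperones stood at 2368 and 2319.9 CPM for HSPA8, against 2191 and 2075 CPM without it. HSP90AB1 had 1146 and 1131 CPM against 1004 and 1035 CPM and was not called, although it was called higher under total counts. HSP90AA1 had 1519 and 1497 CPM against 1273 and 1241 CPM, HSPD1 had 338 and 337 CPM against 290.1 and 291 CPM, and HSPH1 had 183 and 161 CPM against 126 and 131 CPM. The log2 changes were 0.14 (SE 0.09, edgeR adjusted p = 0.220) for HSPA8, which did not pass the threshold, 0.26 (SE 0.09, edgeR adjusted p = 0.0234) for HSP90AA1, 0.22 (SE 0.08, edgeR adjusted p = 0.0411) for HSPD1 and 0.43 (SE 0.08, edgeR adjusted p = 0.000625) for HSPH1. Only HSPH1 of these kept its call under every alternative, as HSP90AA1 and HSPD1 each lost theirs without any 1 of the 4 senescent libraries and without either proliferating library that had no doxycycline. HSPA9, the HSP70 of the mitochondrial matrix, was called in proliferating cells under every alternative, at 315 and 300.0 CPM with doxycycline against 233 and 229.8 CPM without it. In senescent cells it had 294 and 268 CPM against 276 and 253 CPM and was not called. The difference of the changes between the states did not pass the threshold for HSPA8, HSP90AA1, HSP90AB1, HSPD1, HSPH1 or HSPA9. That of HSPA9 was called under DESeq2, with the replicate block, without replicate 2 of proliferating cells with doxycycline and without senescent replicate 2.

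The change with doxycycline differed between the states for HSPA5 and HSP90B1 and for 2 of the 10 ER DNAJ proteins, DNAJB11 and DNAJC10, a share of 20% against 19.9% of all genes. The median difference over these 10 was -0.07, beside -0.03 over all genes. In senescent cells 2 of them were higher and 2 lower with doxycycline, against 22.6% and 23.8% of all genes, and in proliferating cells 3 and 0, against 12.6% and 10.4%. HSPA5, or BiP, the HSP70 of the ER, had 1092 and 1225 CPM in senescent cells with doxycycline and 1874 and 1793 CPM in those without it. In proliferating cells it had 1252 and 1154 CPM with doxycycline and 1173 and 1141 CPM without it. The senescent cells without doxycycline thus stood apart from the other 3 groups, whose libraries overlapped. The log2 change with doxycycline was -0.66 (SE 0.09, edgeR adjusted p = 2.86e-05) in senescent cells and 0.06 (SE 0.09, edgeR adjusted p = 0.720) in proliferating cells, and the difference was -0.72 (SE 0.13, edgeR adjusted p = 0.00125). HSP90B1, or GRP94, which folds secreted and membrane proteins such as integrins, had 1459.8 and 1646 CPM in senescent cells with doxycycline and 2503 and 2299 CPM in those without it. It had 1390.0 and 1246 CPM in proliferating cells with doxycycline and 1455 and 1362 CPM in those without it. The log2 change was -0.63 (SE 0.10, edgeR adjusted p = 9.21e-05) in senescent and -0.10 (SE 0.10, edgeR adjusted p = 0.535) in proliferating cells. The difference of -0.53 (SE 0.14, edgeR adjusted p = 0.0139) lost its call without proliferating replicate 2 and without replicate 1 of senescent cells with doxycycline. HSPA5 and HSP90B1 are the 2 members with an ER stress element in the window printed above.

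DNAJB11, or ERdj3, which binds clients and delivers them to BiP, had 80.1 and 87.7 CPM in senescent cells with doxycycline against 150.4 and 137 CPM in those without it. Proliferating cells had 106 and 104 CPM with doxycycline against 102 and 102 CPM without it. Its log2 change was -0.78 (SE 0.08, edgeR adjusted p = 1.27e-06) in senescent cells and 0.03 (SE 0.08, edgeR adjusted p = 0.806) in proliferating cells, and their difference of -0.81 (SE 0.11, edgeR adjusted p = 0.000149) was the lowest among the members called. DNAJC10, or ERdj5, a disulphide reductase of the ER, had 130.4 and 143 CPM in senescent cells with doxycycline and 181 and 189 CPM in those without it, a difference between states of -0.52 (SE 0.11, edgeR adjusted p = 0.00387). The calls of the difference for HSPA5, DNAJB11 and DNAJC10 held under every alternative. DNAJB9, or ERdj4, which binds BiP and represses the sensor IRE1, went the other way. It had 87.8 and 103 CPM in senescent cells with doxycycline and 59.8 and 56.2 CPM in those without it. It had 34.1 and 32.1 CPM in proliferating cells with doxycycline and 20.4 and 20.6 CPM in those without it. The 4 groups did not overlap, and the log2 changes of 0.72 (SE 0.09, edgeR adjusted p = 8.58e-06) in senescent and 0.69 (SE 0.09, edgeR adjusted p = 5.43e-05) in proliferating cells were called under every alternative. DNAJC3, the ER co-chaperone P58IPK, had 98.7 and 107 CPM in senescent cells with doxycycline and 101 and 105 CPM in those without it, and these libraries overlapped.

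**Figure D3:**
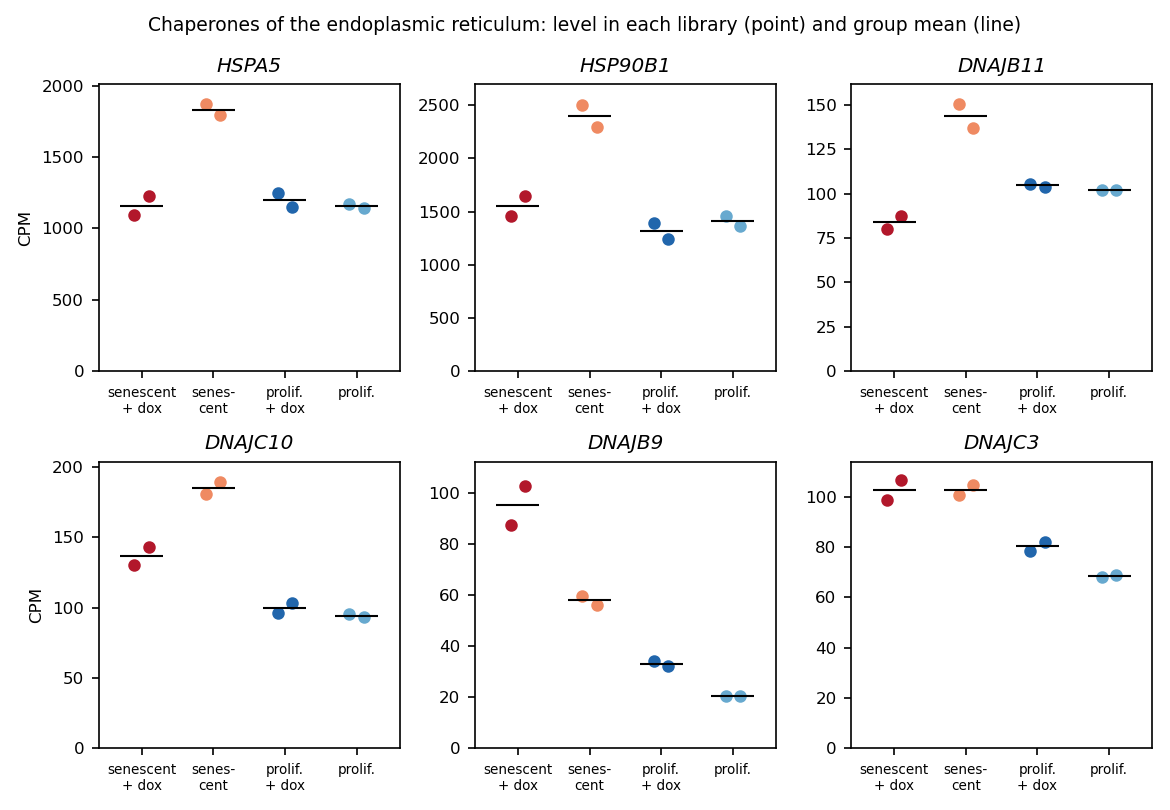
CPM of 6 chaperones of the endoplasmic reticulum in senescent cells with doxycycline, senescent cells, proliferating cells with doxycycline and proliferating cells (prolif.), with 1 point per library, a line at the mean of the 2 and axes from 0. HSPA5, HSP90B1, DNAJB11 and DNAJC10 are highest in senescent cells without doxycycline, at 1834, 2401, 144 and 185 CPM on average, whereas DNAJB9 is highest in senescent cells with it, at 95.3 CPM.

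The list of 16 further ER folding and unfolded protein response genes was measured beside the ER members. In senescent cells 12 of them were lower with doxycycline and 1, HERPUD1, was higher, against 23.8% and 22.6% of all genes, with a median log2 change of -0.49. PDIA4, a disulphide isomerase, had 169 and 219.7 CPM in senescent cells with doxycycline against 436 and 408 CPM without it, a log2 change of -1.12 (SE 0.11, edgeR adjusted p = 5.29e-07). CALR, the lectin chaperone calreticulin, had 1204 and 1366 CPM against 2842 and 2527 CPM, a log2 change of -1.06 (SE 0.10, edgeR adjusted p = 4.68e-07). CRELD2, a secretory-pathway protein induced by ER stress, had 17.2 and 22.8 CPM against 32.8 and 36.5 CPM, a log2 change of -0.79 (SE 0.12, edgeR adjusted p = 9.94e-05). In proliferating cells 2 were higher and 0 lower, against 12.6% and 10.4% of all genes, namely HERPUD1 at 0.34 and SIL1, the nucleotide exchange factor of BiP, at 0.31 on the log2 scale. The change differed between the states for 11 of the 16, all in the lower direction, against 11.8% of all genes, with SIL1 at -1.08 (SE 0.14, edgeR adjusted p = 9.30e-05), CALR at -0.93 and PDIA4 at -0.92. Under total counts the list had 2 higher and 9 lower in senescent cells and 8 differences between states, all again lower.

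In 6 members the change with doxycycline was more positive in senescent than in proliferating cells, and in 12 it was more negative, against 8.08% and 11.8% of all genes tested (19.9% in either direction). Total-count scaling, which moved the median of all genes by 0.18 here, turned this split to 10 more positive and 6 more negative. Besides CRYAB, the more positive ones were HSPA6, HSPA1B, HSPB1, HSPA13 and DNAJC9. HSPB1, which binds actin and unfolding proteins, had 256 and 286 CPM in senescent cells with doxycycline and 235 and 216 CPM in those without it, a log2 change of 0.26 (SE 0.09, edgeR adjusted p = 0.0288). In proliferating cells it had 467 and 408 CPM with doxycycline and 531 and 541 CPM without it, a log2 change of -0.29 (SE 0.09, edgeR adjusted p = 0.0299). Its groups did not overlap in either state, and the difference of 0.56 (SE 0.13, edgeR adjusted p = 0.00713) was called under every alternative, although the change in senescent cells lost its call without either proliferating library and without replicate 2 of either senescent group, and the change in proliferating cells without either proliferating library and without replicate 2 of the group with doxycycline. HSPA1B, the classical stress-inducible HSP70, had 3.36 and 2.77 CPM in senescent cells with doxycycline and 1.34 and 1.49 CPM in those without it, a log2 change of 1.11 (SE 0.22, edgeR adjusted p = 0.000664). The proliferating cells had 3.53 and 3.01 CPM with doxycycline and 3.56 and 3.16 CPM without it. The difference between the states was 1.16 (SE 0.30, edgeR adjusted p = 0.0129), and it lost its call without proliferating replicate 1 and without replicate 1 of senescent cells with doxycycline.

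HSPA1A, the near-identical neighbour of HSPA1B on chromosome 6, had 25 counts in all and lay below the minimum, and reads shared by the pair cannot be assigned between them. With the counts of both summed, the log2 change with doxycycline in senescent cells was 1.11, with an edgeR adjusted p of 0.000569, and the difference between the states was 1.14. The sum does not recover reads that were left uncounted because they fit both genes. HSPA6, a strictly stress-inducible HSP70, had a difference of 2.54 (SE 0.80, edgeR adjusted p = 0.0347) on 4 to 32 reads per library, and 7 of the 8 settings that left out 1 library ended that call. HSPA13, a microsomal HSP70 relative, had 96.6 and 94.3 CPM in senescent cells with doxycycline and 64.7 and 65.9 CPM in those without it, and its difference of 0.49 (SE 0.12, edgeR adjusted p = 0.00910) lost its call only without proliferating replicate 1. HSPE1, or HSP10, the lid of the mitochondrial chaperonin, had 35.4 and 36.7 CPM in senescent cells with doxycycline against 14.5 and 15.0 CPM in those without it, a log2 change of 1.29 (SE 0.22, edgeR adjusted p = 0.00232) that lost its call without senescent replicate 1. Its proliferating libraries with doxycycline stood apart from each other at 76.4 and 46.8 CPM, against 47.0 and 46.4 CPM without it. HSPE1 lies within the annotated readthrough gene HSPE1-MOB4, which had 0 counts, so its counts may be incomplete.

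The members lower with doxycycline included HSPA12A, an atypical HSP70 with a divergent ATPase domain. It had 18.1 and 18.7 CPM in senescent cells with doxycycline against 28.9 and 34.0 CPM in those without it, and 28.2 and 30.6 CPM in proliferating cells with doxycycline against 44.2 and 44.8 CPM in those without it. The log2 change was -0.77 (SE 0.10, edgeR adjusted p = 1.02e-05) in senescent and -0.60 (SE 0.09, edgeR adjusted p = 0.000234) in proliferating cells, called under every alternative. DNAJC13, or RME-8, which works with HSC70 on endosomes, had 71.0 and 72.7 CPM in senescent cells with doxycycline and 113 and 123 CPM in those without it, a log2 change of -0.71 (SE 0.08, edgeR adjusted p = 3.30e-06). In proliferating cells the values were 71.4 and 79.0 CPM with doxycycline and 94.6 and 92.2 CPM without it, a log2 change of -0.31 (SE 0.08, edgeR adjusted p = 0.00960) that lost its call without either proliferating library and without replicate 1 of the group with doxycycline. DNAJC7, a tetratricopeptide co-chaperone that links HSP70 and HSP90, had 71.5 and 74.1 CPM in senescent cells with doxycycline and 119.7 and 102 CPM in those without it, beside 112 and 104 CPM and 104 and 104 CPM in proliferating cells with and without it. The difference of its changes was -0.66 (SE 0.12, edgeR adjusted p = 0.00136) and held under every alternative. Its span overlaps CNP, which changed by -0.52 in senescent cells on the log2 scale, and the strand option of the counting is not given in the sources used here. DNAJA3, a mitochondrial DNAJ, had 7 and 11 reads in senescent cells with doxycycline and 89 and 118 in those without it. It had 58 and 292 reads in proliferating cells with doxycycline, which shows how widely it varied within a group, and 151 and 212 in those without it. Its log2 change of -3.64 (SE 0.97, edgeR adjusted p = 0.0340) in senescent cells lost its call in 7 of 14 alternatives, among them each setting without a senescent library.

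With doxycycline in both groups, 22 members were higher and 21 lower in senescent cells, against 26.8% and 28.7% of all genes tested. Without doxycycline 24 were higher and 15 lower, against 29.8% and 29.4%, and total-count scaling, which moved the median of all genes by -0.17 there, turned this to 18 higher and 25 lower. The median log2 change over the members was -0.09 with doxycycline, beside -0.01 over all genes, and 0.08 without it, beside 0.01. These comparisons share no library. Of the higher members 16 were called in both, which is 72.7% of the list with doxycycline and 66.7% of the list without it, and of the lower ones 13, or 61.9% and 86.7%. DNAJB11 was called in opposite directions. Here too the overlap over all genes was not computed.

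By role, 7 of the 10 ER DNAJ proteins were higher and 1 lower in senescent cells with doxycycline, and 8 were higher and 1 lower without it, with median log2 changes of 0.40 and 0.69. Of the 16 cytosolic DNAJ proteins, 8 were higher and 2 lower with doxycycline and 8 and 0 without it, although total-count scaling gave 5 higher and 3 lower without it. The 6 mitochondrial DNAJ proteins had 1 higher and 5 lower with doxycycline and 1 and 2 without it. The 4 nuclear and ribosome-linked ones had 0 higher and 4 lower with doxycycline and 0 and 3 without it. The HSP70 and HSP110 genes were split, with 4 higher and 4 lower of 14 with doxycycline and 3 and 5 without it. The background of genes called was 55.5% with doxycycline and 59.2% without it.

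**Figure D4:**
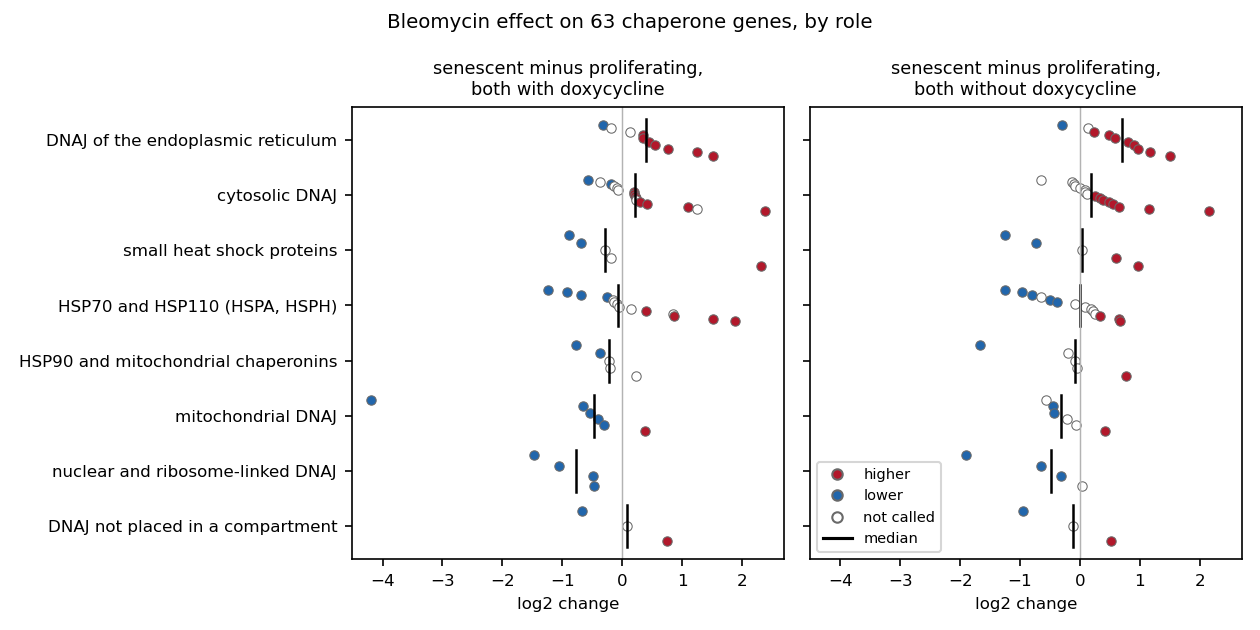
Log2 change of the 63 members in senescent minus proliferating cells, with doxycycline in both groups (left) and without it in both (right), by role and with 1 point per gene. Red points are higher and blue points lower at an adjusted p under 0.05, open points are not called, and the vertical black line is the median of each role. The median of the ER DNAJ proteins lies at 0.40 and 0.69, that of the nuclear and ribosome-linked ones at -0.77 and -0.48.

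Without doxycycline DNAJB9 had the largest rise in senescent over proliferating cells of any member with more than 10 CPM in every library. Its log2 change was 1.53 (SE 0.09, edgeR adjusted p = 1.28e-09) with doxycycline and 1.50 (SE 0.09, edgeR adjusted p = 1.46e-09) without it. DNAJC18, a membrane DNAJ of the ER, had 29.3 and 30.9 CPM in senescent and 13.0 and 12.2 CPM in proliferating cells with doxycycline, and 34.2 and 33.4 CPM in senescent and 15.6 and 14.4 CPM in proliferating cells without it. The log2 change was 1.25 (SE 0.09, edgeR adjusted p = 1.77e-08) with doxycycline and 1.17 (SE 0.09, edgeR adjusted p = 2.41e-08) without it. DNAJB4 was likewise higher by 1.16 (SE 0.08, edgeR adjusted p = 3.49e-09) without doxycycline, and DNAJC10 by 0.97 (SE 0.08, edgeR adjusted p = 3.76e-08). These calls held under every alternative. Without doxycycline HSPA5 and HSP90B1 were also higher in senescent cells, by 0.66 (SE 0.09, edgeR adjusted p = 1.41e-05) and 0.77 (SE 0.10, edgeR adjusted p = 6.49e-06). With doxycycline in both groups they were not called, at -0.05 (SE 0.09, edgeR adjusted p = 0.644) and 0.24 (SE 0.10, edgeR adjusted p = 0.0521). HSP90B1 was called higher there in 6 of 14 alternatives, namely DESeq2, DESeq2 size factors, total counts, the replicate block, and without replicate 1 of either group. The comparisons of senescent cells without doxycycline, to proliferating cells here and to senescent cells with doxycycline above, share the same 2 libraries, so the rise in one and the fall in the other are not independent.

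CRYAB was higher in senescent cells with doxycycline than in proliferating cells with it, by 2.32 (SE 0.16, edgeR adjusted p = 1.99e-08). Without doxycycline the change was 0.98 (SE 0.36, edgeR adjusted p = 0.0309), a call lost under total counts, without either proliferating library, without senescent replicate 1 and with only the 4 libraries compared. Higher members with few reads were DNAJC12, which binds aromatic amino acid hydroxylases, at 2.38 with doxycycline and 2.15 without it, and, in the comparison with doxycycline, HSPA6 at 1.88 and HSPA12B at 1.51. All 3 stayed under 1 CPM in each library, and with doxycycline each lost its call in at least 1 setting without a library of senescent or proliferating cells with the drug. DNAJC12 reached the count minimum only through senescent cells without doxycycline, which held 42 of its 85 counts, so that its value without doxycycline is a description. Leaving out DNAJC12, DNAJB13 and HSPA1L, the members that miss the minimum without the libraries of 1 group, gave 21 members higher and 21 lower with doxycycline and 23 and 15 without it. HSPA8 was higher without doxycycline by 0.33 (SE 0.09, edgeR adjusted p = 0.00415), a call lost under total counts and without proliferating replicate 2.

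DNAJC9, a nuclear co-chaperone of histones H3 and H4, showed the largest fall in senescent cells without doxycycline. It had 31.2 and 29.95 CPM in senescent and 91.8 and 77.8 CPM in proliferating cells with doxycycline, and 23.4 and 25.7 CPM in senescent and 90.8 and 92.8 CPM in proliferating cells without it. The groups lay far apart, with log2 changes of -1.47 (SE 0.09, edgeR adjusted p = 2.33e-09) with doxycycline and -1.90 (SE 0.09, edgeR adjusted p = 1.03e-10) without it. FAM149B1, whose span overlaps it, was also lower, at -0.93 and -1.21 on the log2 scale, and reads of the pair were not told apart by strand here. HSPB1 was 2.38-fold lower in senescent than in proliferating cells without doxycycline, a log2 change of -1.25 (SE 0.09, edgeR adjusted p = 1.39e-08), and its log2 change was -0.69 (SE 0.09, edgeR adjusted p = 1.09e-05) with doxycycline. HSPE1 changed by -1.66 (SE 0.21, edgeR adjusted p = 0.000374) without doxycycline and by -0.77 (SE 0.20, edgeR adjusted p = 0.0144) with it, the second a call lost without any 1 of the 4 senescent libraries. Its partner in the chaperonin, HSPD1, changed by -0.19 (SE 0.08, edgeR adjusted p = 0.0534) without doxycycline, which did not pass the threshold but did under total counts, with the replicate block, with only the 4 libraries compared and without either library of proliferating cells with doxycycline, and by -0.38 (SE 0.08, edgeR adjusted p = 0.00106) with it.

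HSPA14, an HSP70 that binds ribosomes together with DNAJC2, had 8.20 and 7.44 CPM in senescent and 21.1 and 15.8 CPM in proliferating cells with doxycycline, a log2 change of -1.23 (SE 0.13, edgeR adjusted p = 1.10e-06). DNAJC17, linked to splicing, had 7.51 and 7.24 CPM and 16.9 and 13.8 CPM in the same groups, a log2 change of -1.05 (SE 0.12, edgeR adjusted p = 2.35e-06). HSPA2, an HSP70 known for its role in the testis, changed by -0.91 with doxycycline and -0.97 without it on the log2 scale, and HSPB11, a part of the intraflagellar transport machinery, by -0.88 with it. DNAJA3 changed by -4.19 (SE 0.95, edgeR adjusted p = 0.0165) in senescent cells with doxycycline, a call lost without either of those libraries and with only the 4 libraries compared. HSPH1 changed by -0.39 (SE 0.08, edgeR adjusted p = 0.000812) without doxycycline and by -0.26 (SE 0.08, edgeR adjusted p = 0.0155) with it, and HSPA1B by -1.25 (SE 0.22, edgeR adjusted p = 0.000139) without it. HSPA1B was not called with doxycycline, at -0.09 (SE 0.20, edgeR adjusted p = 0.734). The cytosolic pair HSP90AA1 and HSP90AB1 and the co-chaperone DNAJB1 were not called without doxycycline, at -0.05 (SE 0.09, edgeR adjusted p = 0.612), -0.08 (SE 0.09, edgeR adjusted p = 0.443) and -0.10 (SE 0.08, edgeR adjusted p = 0.258), although all 3 were called lower under total counts.

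**Figure D5:**
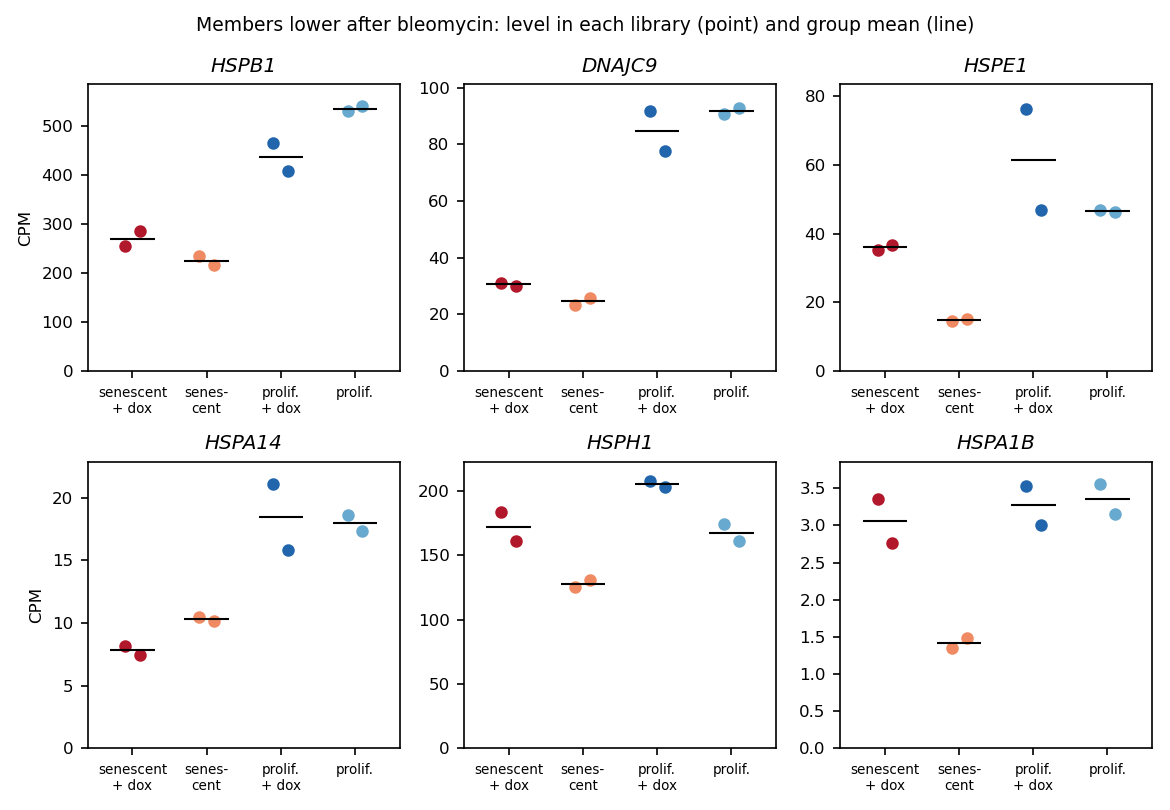
CPM of 6 members lower in senescent cells without doxycycline than in proliferating cells without it, in the 4 groups from senescent with doxycycline to proliferating without it, with 1 point per library, a line at the mean of the 2 and axes from 0. HSPB1 averages 271, 226, 438 and 536 CPM and DNAJC9 30.6, 24.6, 84.8 and 91.8 CPM across the groups. The HSPE1 libraries of proliferating cells with doxycycline are 76.4 and 46.8 CPM, the widest gap in the panel.

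The cofactors of these chaperones were read from further lists. A list of 4 genes held the heat shock factors HSF1, HSF2 and HSF4 and the heat shock factor binding protein HSBP1. Of these, 0 were higher and 1 lower in senescent cells with doxycycline against proliferating cells with it. Without it the counts were 0 and 3, against 28.7% and 29.4% of all genes lower with and without doxycycline. HSF1, the main factor of the heat shock response, had 69.0 and 71.4 CPM in senescent cells with doxycycline against 53.3 and 46.9 CPM without it, a log2 change of 0.48 (SE 0.08, edgeR adjusted p = 0.000169). In proliferating cells it had 77.5 and 77.2 CPM with doxycycline against 64.6 and 62.9 CPM without it, a log2 change of 0.28 (SE 0.08, edgeR adjusted p = 0.0196). HSF2 had 25.1 and 22.1 CPM in senescent cells with doxycycline and 13.7 and 13.0 CPM in those without it, a log2 change of 0.82 (SE 0.10, edgeR adjusted p = 7.60e-06), and its difference between the states was 0.68 (SE 0.14, edgeR adjusted p = 0.00301). Of the 8 subunits of the cytosolic chaperonin TRiC, which folds actin and tubulin, 6 were lower and 0 higher in senescent than in proliferating cells both with doxycycline and without it, against 28.7% and 29.4% of all genes lower. With doxycycline 4 were higher and 0 lower in senescent cells and 6 and 0 in proliferating cells, against 22.6% and 12.6% of all genes higher. CCT2 had 252 and 239 CPM in senescent cells with doxycycline against 174 and 165 CPM without it, and 325 and 292 CPM in proliferating cells with it against 227 and 218 CPM without it. The log2 changes were 0.53 (SE 0.08, edgeR adjusted p = 7.31e-05) and 0.47.

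Of a list of 13 HSP90 cochaperones 12 were tested, among them TRAP1, the mitochondrial HSP90 itself. In senescent against proliferating cells 0 of the 12 were higher and 8 lower with doxycycline, against 28.7% of all genes lower. Without it 1 was higher and 7 lower, against 29.4% of all genes lower. TRAP1 was called lower in both. FKBP5, an immunophilin that dampens glucocorticoid receptor signalling, had 6.98 and 6.66 CPM in senescent and 32.0 and 35.2 CPM in proliferating cells with doxycycline, and 8.93 and 10.6 CPM in senescent and 58.3 and 56.8 CPM in proliferating cells without it. Its log2 change was -2.30 (SE 0.11, edgeR adjusted p = 5.71e-11) with and -2.56 (SE 0.10, edgeR adjusted p = 8.80e-12) without doxycycline. With doxycycline against without it, 3 cochaperones were higher and 2 lower in senescent cells and 5 and 1 in proliferating cells, which is 41.7% and 50% of the 12, against 46.3% and 23.0% of all genes called. AHSA1, which stimulates the ATPase of HSP90, had 162 and 153 CPM in senescent cells with doxycycline against 123 and 109.7 CPM without it and 165 and 138 CPM in proliferating cells with it against 99.6 and 103 CPM without it. The log2 changes were 0.44 (SE 0.09, edgeR adjusted p = 0.00122) and 0.58. FKBP4, an HSP90-bound immunophilin, changed by 0.71 and 0.50. Among 11 exchange factors and cochaperones of HSP70, 3 were higher and 1 lower with doxycycline in senescent cells and 3 and 0 in proliferating cells. These shares of 36.4% and 27.3% called lay below and near those over all genes. BAG3, the partner of HSPB8, had 145 and 138 CPM in senescent cells with doxycycline against 115 and 115 CPM without it and 152 and 145 CPM in proliferating cells with it against 126 and 121 CPM without it, a log2 change of 0.30 (SE 0.07, edgeR adjusted p = 0.00347) in senescent and 0.26 (SE 0.07, edgeR adjusted p = 0.0165) in proliferating cells. HSPBP1, an exchange factor of cytosolic HSP70, changed in senescent against proliferating cells by -1.24 with doxycycline and -1.38 without it.

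The 10 genes with a matching symbol below the count minimum were DNAJA4, DNAJB3, DNAJB8, DNAJC28, HSPA1A, HSPA7, HSPB2, HSPB3, HSPB7 and HSPB9. Their counts summed to between 0 and 25 over the 8 libraries, with 0 for DNAJB3 and HSPA7, and no library held more than 10 counts of any of them. None was tested.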

How the data were processed

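The authors deposited raw read counts per gene, in whole numbers, for 8 libraries over 54628 genes, and each was used. Per the labels' protocols, RNA came from acid phenol extraction and libraries from the TruSeq Stranded mRNA kit. Trimming with Trimmomatic 0.36, alignment with HISAT2 2.1.0 and counting with featureCounts 1.6.3 on hg38 are listed in the submitters' processing notes. Parameters, gene annotation and counting strand: not given in the sources used here.

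Libraries were grouped by labelled treatment, and replicate numbers follow the titles. Counts were fitted in R 4.3.3 with edgeR 4.0.16 and limma 3.58.1, using filterByExpr (17155 genes), TMM factors and a robust quasi-likelihood model of 4 groups with 4 residual degrees of freedom (common biological coefficient of variation 0.0904, median prior degrees of freedom 11.2). The 5 contrasts were tested two-sided, with Benjamini-Hochberg adjusted p under 0.05 over all genes tested as the threshold. Each SE belongs to a fitted change. The script was tested on simulated data. Libraries of a group correlated at Pearson's r from 0.990 to 0.993 on log2 CPM (prior count 2) and differed beyond counting noise. CPM per kilobase uses GENCODE 29 union exon lengths. Promoter windows came from RefSeq tables with Python 3.11.15, matched by symbol only. Gene positions were matched by symbol or, for synonyms, by gene record. Plots used matplotlib 3.10.9.

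Alternatives were DESeq2 1.42.0, DESeq2 size factors, total counts, no filter, a replicate block, each library left out, and fits to the 4 libraries compared. Statistics are given for the 6 members that rose most and the 6 that fell most among those called in each contrast, for 15 standing members (CRYAB, HSPB1, HSPA1A, HSPA1B, HSPA5, HSPA8, HSP90AA1, HSP90AB1, HSP90B1, HSPH1, HSPD1, HSPE1, DNAJB1, DNAJB9 and DNAJC9), and for the 3 largest called changes in each further list. Statistics of DNAJB4, DNAJB6, DNAJB11 and DNAJC10 beyond this rule, and of YAP1 and genes overlapping members, were added after their values were seen. Also outside the rule are those of HSPB8 in senescent against proliferating cells with doxycycline and of BAG3 with doxycycline in senescent cells. Members and lists were chosen with earlier results of these data known.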

Additional observations from a re-analysis of the deposited data

Results flagged for a closer look

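The change with doxycycline differed between senescent and proliferating cells, by edgeR's quasi-likelihood test of the difference itself, in 18 of the 63 members, against 19.9% of all genes tested. Each value is the log2 change in senescent cells minus that in proliferating cells.

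The 6 positive differences were 2.54 for HSPA6, 1.34 for CRYAB, 1.16 for HSPA1B, 0.56 for HSPB1, 0.49 for HSPA13 and 0.43 for DNAJC9. HSPB1 was the single one of these called under every alternative, and HSPA6 rests on 4 to 32 reads per library.

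Among the 12 negative differences, chaperones of the endoplasmic reticulum had -0.81 for DNAJB11, -0.72 for HSPA5, -0.53 for HSP90B1 and -0.52 for DNAJC10. The small heat shock protein HSPB8 had -0.78. Cytosolic DNAJ proteins had -0.66 for DNAJC7, -0.62 for DNAJC6, -0.43 for DNAJB6 and -0.40 for DNAJC13. DNAJC2, a ribosome-bound DNAJ, had -0.51, and the mitochondrial DNAJC11 and DNAJC15 had -0.47 and -0.44. DNAJB11, DNAJC10, DNAJC7, HSPA5 and HSPB8 were called under every alternative. DNAJC2, DNAJC11, DNAJC15, DNAJB6, DNAJC6 and DNAJC13 lost their calls when libraries were scaled by total counts alone. DNAJC2 also lost its call without proliferating replicate 1 and without replicate 2 of senescent cells with doxycycline, DNAJC11 without proliferating replicate 2 and without replicate 1 of senescent cells with doxycycline, and HSP90B1 without either of those same libraries. DNAJC15 and DNAJC13 lost theirs in 5 settings that left out 1 library and DNAJC9 in 6, either proliferating library among them for all 3 genes. DNAJC2 had 29.8 and 26.1 CPM in senescent cells with doxycycline against 39.3 and 36.6 CPM in those without it, and 39.5 and 38.7 CPM in proliferating cells with doxycycline against 36.3 and 38.1 CPM in those without it.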

How the results depend on the processing

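Of 1482 values of single genes recomputed under alternatives, 1316 kept direction and side of the threshold, 36 gained a call, 119 lost one and 11 changed sign, and of 207 recomputed counts 188 stayed within 1.5 times. Under total counts, members lower in senescent cells without doxycycline numbered 25 rather than 15, and the difference of the doxycycline effects was positive in 10 and negative in 6. Leaving out each library in turn gave 7 to 18 members higher and 1 to 5 lower with doxycycline in proliferating cells (2011 to 4155 of all genes called), 15 to 25 and 11 to 17 in senescent cells, and 1 to 7 positive and 6 to 16 negative differences (1852 to 3903 of all genes). The lowest counts for proliferating cells came without either of its untreated libraries, those for senescent cells without replicate 1 of the group with doxycycline. Calls held under every alternative run for 28 of 43 members in senescent against proliferating cells with doxycycline, 32 of 39 without it, 20 of 40 with doxycycline in senescent and 8 of 22 in proliferating cells, and 6 of 18 differences.

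The changes of sign all fell on values without a call. Over the settings that left out 1 library, HSPA1B ranged from -0.23 to 0.035 and HSPA5 from -0.15 to 0.034 in senescent against proliferating cells with doxycycline. HSPA1B ranged from -0.15 to 0.071 with doxycycline in proliferating cells, and the difference of effects for DNAJB9 from -0.10 to 0.14. Under total counts that difference was 0.0047 for HSPA8, 0.041 for HSP90AA1 and 0.049 for HSP90AB1. The cause was not tested.

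The title numbers do not pair libraries by any statement in the labels, and deviations of same-numbered libraries correlated at -0.0121 to 0.159. With the replicate block, members higher and lower were 23 and 22 in senescent against proliferating cells with doxycycline, 25 and 17 without it, 25 and 17 with doxycycline in senescent and 18 and 5 in proliferating cells, with 8 positive and 16 negative differences. With 2 libraries a group and 4 residual degrees of freedom, small changes and genes with few reads, such as HSPA6, DNAJC12 and DNAJA3, are measured with little precision.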
